A study of Mus musculus with 6 samples.

Results

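The ETS family is a group of transcription factors that share 1 DNA-binding domain, and 10 of its members that blood cells are known to use were examined here in a mouse acute myeloid leukaemia line treated with an inhibitor of another member, PU.1. The 10 genes were Ets1, Ets2, Fli1, Erg, Elf1, Elf2, Elf4, Gabpa, Etv6 and Elk3, chosen by name as ETS factors outside the PU.1 subfamily. Each had exactly 1 row with its symbol alone in the array table, and all 10 were among the 22180 genes tested. The cells were the PU.1low URE-/- line, established at the leukaemic stage from a mouse without the URE, an enhancer upstream of Spi1, the gene that encodes PU.1. Both groups carry that deletion, and no cells with an intact element were part of the comparison. One group of 3 samples received the small molecule DB2313 at 330 nM and the other group of 3 received the same volume of water as vehicle, each for 24 h. The labels call the samples of a group biological replicates, and nothing says that they came from separately started cultures, so the tests cover the variation among these samples, which may be technical. All samples come from 1 line of 1 mouse.

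ETS factors bind short DNA sites around the core GGAA, and the bases beside the core set which members bind a site well. ETS1-like members favour a core preceded by CC, whereas PU.1 favours a core with A-rich sequence before it. DB2313 belongs to a group of compounds that bind the minor groove of A- and T-rich DNA beside the PU.1 core. Several members serve blood cells in distinct ways. FLI1 and ERG act in stem cells and megakaryocytes, GABPA with its beta partner acts on many housekeeping promoters, ETV6 is a repressor needed by adult stem cells, and ELF4 regulates the cycling of stem and lymphoid cells.

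The GGAA core also occurs in the members' own promoters, and the sequences below show it with the bases beside it. RefSeq windows of the 250 bases before each annotated start (build GRCm38.p6) were found for 8 of the 10 genes, 13 windows in all. No window was listed for Ets1 and Fli1. The motif AGGAAG, searched on both strands, occurred in 5 of the 13 windows and 5 of the 8 genes. Among all 32851 windows of the same length, 29.5% held it. The 8 matches are shown with 12 bases on either side, read on the strand on which the motif appears, and the capitals mark the motif.
Elk3, chr10:93311168-93311197, minus strand: gggtggccgagcAGGAAGcggggcgggcac
Elf2, chr3:51277706-51277735, minus strand: gaggtcttttctAGGAAGaaaaatttgatt
Elf2, chr3:51277626-51277655, plus strand: cctcgcctcggcAGGAAGaggcgcgcttca
Elf2, chr3:51277529-51277558, plus strand: ccgcgcccagacAGGAAGtcagtcccgggc
Elf4, chrX:48463246-48463275, minus strand: ctggggaactaaAGGAAGgagatggagggg
Erg, chr16:95459371-95459400, plus strand: tcagccaatggcAGGAAGaggtttctattg
Gabpa, chr16:84834935-84834964, plus strand: cgctcaccggacAGGAAGcgcctcgaaggg
Gabpa, chr16:84835000-84835029, plus strand: ccaaacaggaggAGGAAGtggagggtaagt

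Elf2 and Elf4 each had 1 match in which 4 of the 5 bases before the motif were A or T. In the other matches shown, 1 or 2 of the 5 were. Over the 12027 matches in all windows the median was 2, and 13.5% had 4 or 5. The only member with GAGGAAGT, a PU.1-like sequence that contains AGGAAG, was Gabpa, and 2.44% of all windows held it. Gabpa was also the only member with CCGGAAG, the ETS1-like form, which 6.91% of all windows held. The core GGAA alone occurred in 11 of the 13 windows and in 93.4% of all windows. The whole window of Elk3, the member with the greatest difference between the groups, follows with AGGAAG in capitals. A match describes the letters of a window and says nothing about binding in these cells.
Elk3, chr10:93311160-93311409, minus strand: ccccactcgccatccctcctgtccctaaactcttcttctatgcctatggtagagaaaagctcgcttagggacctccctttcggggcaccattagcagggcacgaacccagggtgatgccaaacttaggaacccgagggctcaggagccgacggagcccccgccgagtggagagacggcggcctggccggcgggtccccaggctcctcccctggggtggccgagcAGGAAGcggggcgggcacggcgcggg

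The question put to the arrays was whether 24 h with DB2313 left the transcripts of these 10 factors at other levels than in vehicle. The activity of PU.1 was not measured by these arrays. None of the 10 passed an adjusted p of 0.05 in limma (Benjamini-Hochberg over all genes), where 1.81% of all genes did, 1.02% higher and 0.789% lower with DB2313. Elk3 came nearest, with a log2 difference of 0.31 and an adjusted p of 0.0520, which lies just outside the threshold. Elf2, Fli1 and Erg were next, with 0.21, 0.19 and 0.18. Elf1 had -0.12, and the remaining 5 members lay within 0.03 of 0. Without adjustment, 4 of the 10 had a p under 0.05, all 4 of them higher, against 12.7% of all genes. In 5 of the 10 the 3 DB2313 values lay wholly above or below the 3 vehicle values, 4 above and 1 below, against 19.3% of all genes, 9.75% above and 9.55% below.

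**Figure D1:**
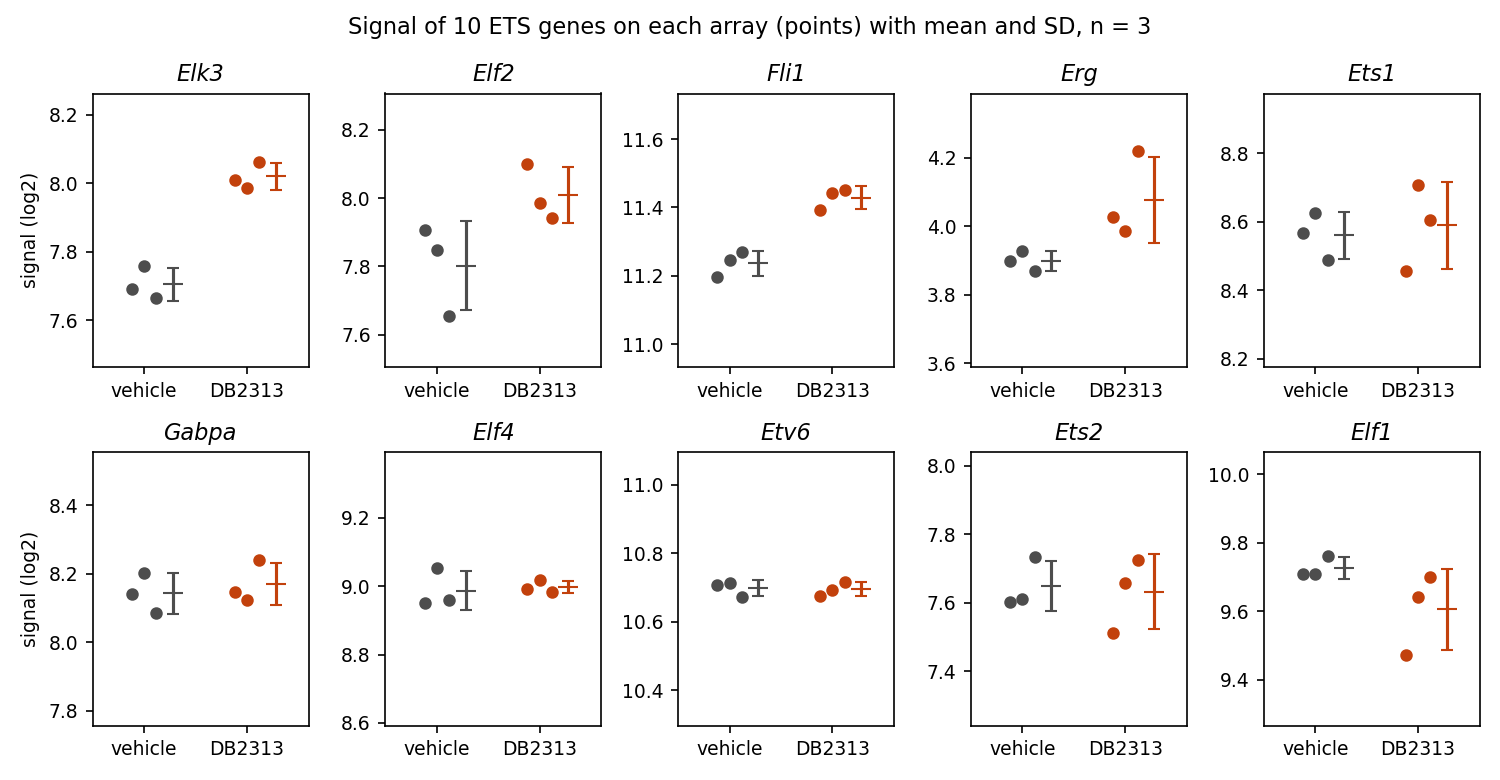
Log2 signal of each of the 10 ETS genes on the 3 vehicle and 3 DB2313 arrays (points), with the group mean and SD beside them; every panel spans 0.8 log2 units around its own centre, so the panels share a scale of differences and not of levels. The groups are apart for Elk3, Elf2, Fli1, Erg and Elf1 and overlap for Ets1, Gabpa, Elf4, Etv6 and Ets2.

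ELK3 is a ternary complex factor, a partner of serum response factor that represses genes until it is phosphorylated by MAP kinases. Elk3 (probe set 17244341) read 7.69, 7.76 and 7.66 in the vehicle samples and 8.01, 7.99 and 8.06 with DB2313 (log2). All 3 treated values lay above all 3 vehicle values, and the gap between the groups was wider than the spread within either. The means were 7.71 ± 0.05 and 8.02 ± 0.04 (log2, SD, n = 3), a 1.24-fold difference. The 95% confidence interval of the log2 difference ran from 0.17 to 0.46 (SE 0.061). Its absolute difference was greater than that of 95.8% of genes. The exact permutation test of 3 against 3 arrays, 2-sided, gave p = 0.10, the smallest it can give. Elk3 did pass with genes below the 0.25 quantile of signal left out (limma adjusted p = 0.0283), and its adjusted p lay between 0.00506 and 0.196 over all settings tried.

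ETV6, the other repressor of the set, showed the least difference of the 10. Etv6 (probe set 17463673) read 10.71, 10.71 and 10.67 in vehicle and 10.68, 10.69 and 10.72 with DB2313. The values of the groups interleaved. The log2 difference was -0.0029, with an interval from -0.13 to 0.13 (limma adjusted p = 0.988), so a difference of more than 0.13 in either direction lay outside the interval.

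FLI1 and ERG form 1 subfamily of close relatives that activate genes of stem cells, megakaryocytes and endothelium. Fli1 (probe set 17525310) read 11.20, 11.25 and 11.27 in vehicle and 11.39, 11.44 and 11.45 with DB2313. The treated samples were all higher, and the replicates of each group lay close together. The means were 11.24 ± 0.04 and 11.43 ± 0.03 (log2, SD, n = 3), a log2 difference of 0.19 with an interval from 0.06 to 0.33, or 1.14-fold. It did not pass (limma adjusted p = 0.214), except after adding an offset of 32 to the linear signal (adjusted p = 0.0251) and with a trended and robust prior (adjusted p = 0.00473), and over all settings the adjusted p reached 0.431.

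Erg (probe set 17332358) read 3.90, 3.93 and 3.87 in vehicle and 4.03, 3.99 and 4.22 with DB2313. The treated samples were higher, with DB2313 replicate 3 above the other two. The log2 difference was 0.18, with an interval from 0.0010 to 0.36 (limma adjusted p = 0.389). Its mean signal, 3.99, lay just above the lower quartile of all genes, 3.89, so this row was close to the dim end of the scale, where background was not measured. With the offset of 32, which damps dim genes, the difference was 0.06, and without DB2313 replicate 3 it was 0.11.

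ETS1 and ETS2, the founding members, act in lymphocyte and macrophage gene control and are activated through MAP kinase phosphorylation. Ets1 (probe set 17515819) read 8.57, 8.63 and 8.49 in vehicle and 8.46, 8.71 and 8.61 with DB2313. The groups overlapped, and the treated values spread more widely than the vehicle values. The log2 difference was 0.03 (interval -0.16 to 0.22, limma adjusted p = 0.925). A second row carries the symbols Taok1 and Ets1 together and cannot be given to either gene. It had means of 8.56 ± 0.04 and 8.39 ± 0.05 (log2, SD, n = 3), with a difference of -0.16 that did not pass when all rows were tested (limma adjusted p = 0.496).

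Ets2 (probe set 17327465) read 7.60, 7.61 and 7.73 in vehicle and 7.51, 7.66 and 7.72 with DB2313. The groups overlapped here too. The log2 difference was -0.02 (interval -0.20 to 0.16, limma adjusted p = 0.954). In the RefSeq gene table Ets1 lies beside Fli1 and Ets2 beside Erg, with 0 protein-coding genes between the genes of either pair. In both pairs the groups were apart for the FLI1 and ERG subfamily gene and overlapped for its neighbour, a difference within pairs that was not tested.

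None of the 3 ELF genes passed, and differences among them were not tested. Elf2, which encodes the factor NERF, read 7.91, 7.85 and 7.65 in vehicle and 8.10, 7.99 and 7.94 with DB2313 (probe set 17405099). The treated values were all higher, though vehicle replicate 3 was well below its 2 companions. The means were 7.80 ± 0.13 and 8.01 ± 0.08 (log2, SD, n = 3), a log2 difference of 0.21 (interval 0.0091 to 0.40, limma adjusted p = 0.372). Without vehicle replicate 3 the difference was 0.13.

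Elf1, an activator of genes in lymphoid and myeloid cells, was the one member whose treated values all lay below the vehicle values. It read 9.71, 9.71 and 9.76 in vehicle and 9.47, 9.64 and 9.70 with DB2313 (probe set 17302238). The treated samples were more scattered, and DB2313 replicate 3 came close to the lowest vehicle value. The log2 difference was -0.12 (interval -0.30 to 0.05, limma adjusted p = 0.573), and -0.05 without DB2313 replicate 1. Elf4 (probe set 17541404) read 8.95, 9.05 and 8.96 in vehicle and 8.99, 9.02 and 8.98 with DB2313, with the treated values inside the vehicle range. Its difference was 0.01 (interval -0.13 to 0.15, limma adjusted p = 0.963).

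GABPA binds DNA as the alpha subunit of GABP and takes its activation domain from a beta subunit. Gabpa (probe set 17326816) read 8.14, 8.20 and 8.08 in vehicle and 8.15, 8.12 and 8.24 with DB2313. The groups overlapped, with a log2 difference of 0.03 (interval -0.13 to 0.18, limma adjusted p = 0.914). Of the beta subunit genes, Gabpb1 had a difference of 0.13, with the treated values all above the vehicle values, and Gabpb2 had -0.09 with overlapping groups, and neither passed (limma adjusted p = 0.487 and 0.645).

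Across the 10 members the within-group SD lay between 0.02 and 0.13 on the log2 scale. The intervals of all 10 together ran from -0.30 to 0.46. The median log2 difference of the members was 0.03 and the median absolute difference 0.07, beside -0.0024 and 0.08 over all genes. Ordered by difference, neighbours from Elk3 to Elf1 had overlapping intervals throughout. Levels are not ranked between members, since different probe sets respond differently to the same amount of RNA. Vehicle replicate 3 gave the lowest value of the 6 arrays for 5 members and DB2313 replicate 3 the highest for 5. Over all genes these shares were 16.2% and 15.6%. Where the groups were apart, the lowest and highest values had to fall in opposite groups, so these shares are no like comparison for such members. A lowest or highest value could also differ little from the next, as in Etv6, at 10.67 in vehicle replicate 3 and 10.68 in DB2313 replicate 1. The part of single arrays in the differences is shown by the values with each array left out.

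**Figure D2:**
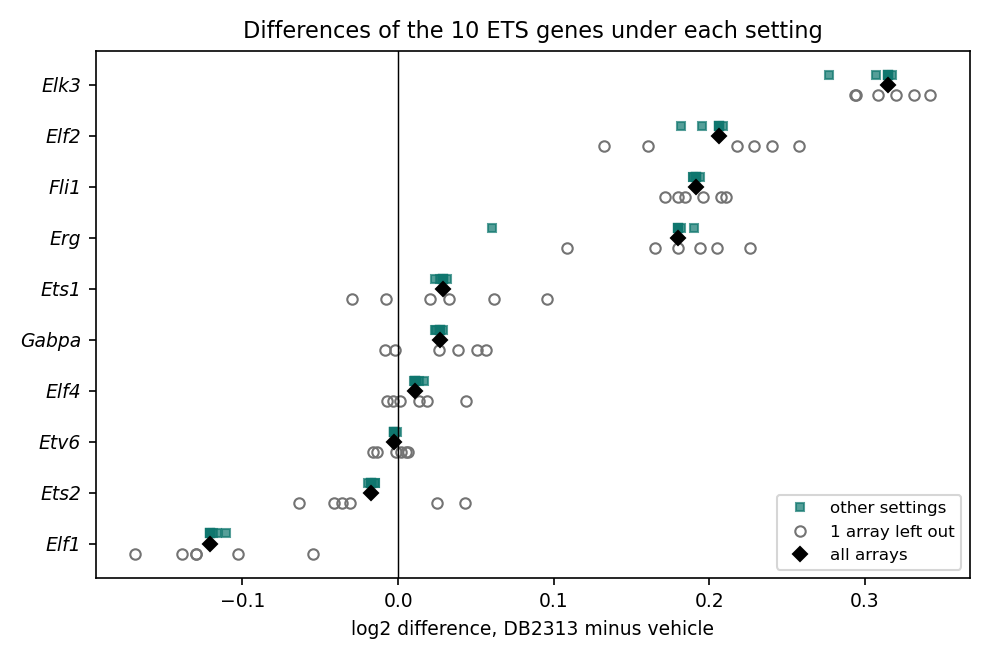
Log2 difference (DB2313 minus vehicle) of each of the 10 ETS genes on all arrays (diamonds), with 1 array left out (open circles) and under the other processing settings (squares). Elk3, Elf2, Fli1 and Erg stay above 0 and Elf1 stays below 0 in every setting drawn, while the remaining 5 lie on both sides of 0.

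The PU.1 subfamily was set beside the members. Spi1 read 6.79, 6.88 and 6.95 in vehicle and 6.52, 6.49 and 6.50 with DB2313, and fell by 0.37 on the log2 scale (SE 0.064, limma adjusted p = 0.0342). Leaving out any single array ended that call (adjusted p between 0.0648 and 0.134), as did the unmoderated test (adjusted p = 0.0872) and testing all rows (0.124). Spib, a factor of lymphoid and dendritic cells, had a difference of 0.13 and Spic, a factor of red pulp macrophages, of -0.0061, and both missed the threshold (limma adjusted p = 0.773 and 0.981). The Spib value rested on single arrays, at 0.26 without DB2313 replicate 1 and 0.00061 without DB2313 replicate 2.

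The change of each member was then compared with that of Spi1 on the same arrays, as the log2 ratio of the member to Spi1. All 10 ratios were higher with DB2313 in limma at an adjusted p of 0.05, and in all 10 the groups did not overlap. The greatest was that of Elk3, at 0.69 (SE 0.085, adjusted p = 0.000557), followed by Elf2 at 0.58 and Fli1 at 0.56. The smallest was that of Elf1, at 0.25 (SE 0.091, adjusted p = 0.0248), which missed the threshold in 4 of the 6 settings with 1 array left out, namely without vehicle replicate 2 or 3 or DB2313 replicate 2 or 3 (adjusted p from 0.0605 to 0.1003), and in the unmoderated test. The same test called 85.7% of all genes, and 85.3% of all genes as higher relative to Spi1, and the groups were apart for 81.9%, since every ratio contains the fall of Spi1. The count for the 10 members is thus near that of genes at large and is no result particular to them. The exact permutation test gave p = 0.10 for each of the 10, the smallest it can give.

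**Figure D3:**
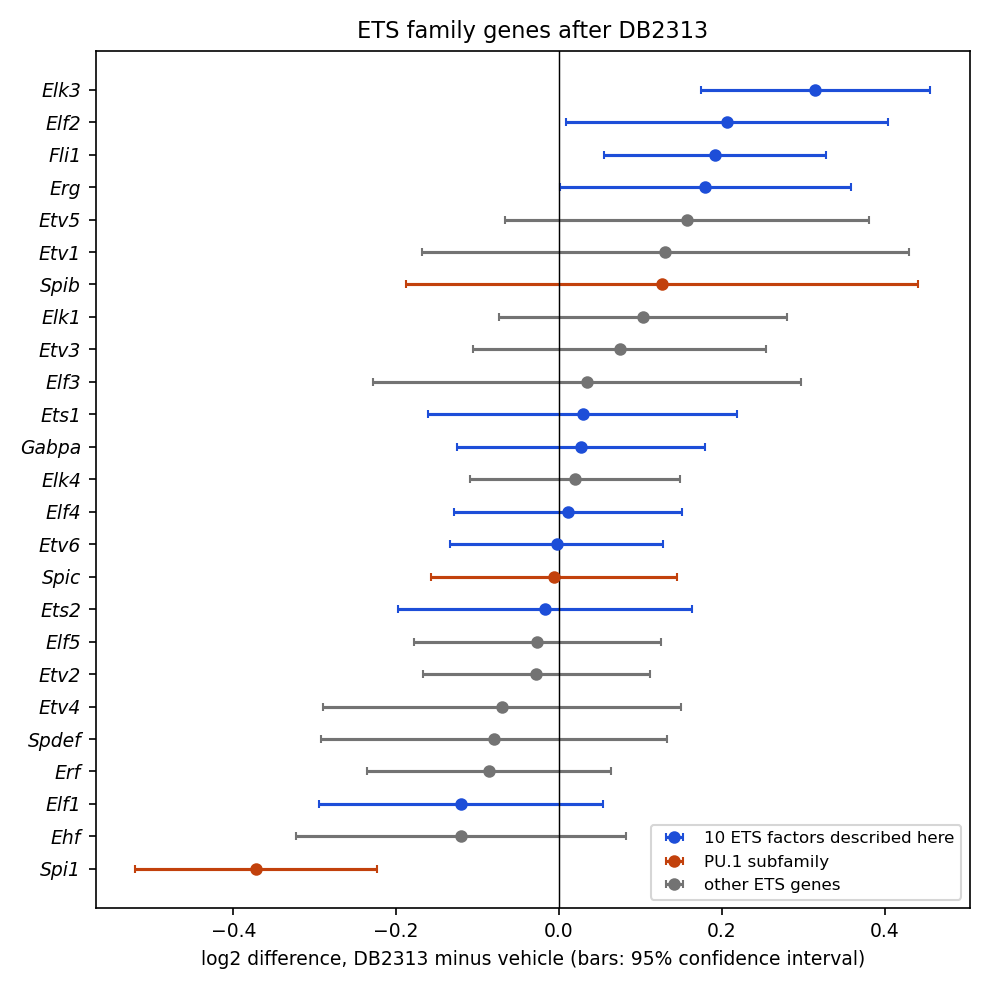
Log2 difference (DB2313 minus vehicle) with its 95% confidence interval for the 25 ETS family genes measured, ordered by size: the 10 described here, the PU.1 subfamily and the other ETS genes, 3 samples a group. Spi1 is lowest at -0.37 and Elk3 highest at 0.31, and the intervals of Elk3, Elf2, Fli1 and Erg lie above 0 while their adjusted p-values miss the threshold.

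The rest of the ETS family gave no call. Of the 12 further ETS genes measured, none passed in limma. None had an unadjusted p under 0.05, against 12.7% of all genes, and in none were the groups apart, against 19.3% of all genes. Etv5, of the PEA3 group, had the highest difference of these, 0.16, and Ehf, an epithelial factor, the lowest, -0.12 (limma adjusted p = 0.567 and 0.641). These values moved with single arrays, Etv5 to 0.060 without vehicle replicate 3 and Ehf to -0.038 without DB2313 replicate 3, and Etv5 had 0.055 as the mean of its rows. Elk1 and Elk4, the other ternary complex factors beside Elk3, had differences of 0.10 and 0.02. Among 19 partner factors of ETS proteins none passed in limma, and the median difference was -0.0090. An unadjusted p under 0.05 was reached by 2 of the 19, against 12.7% of all genes. The groups were apart for 6, 4 higher and 2 lower, against 19.3% of all genes. The smallest p-values were those of Fos and Ep300. Ep300, an acetyltransferase that many ETS factors recruit, read 9.83, 9.77 and 9.91 in vehicle and 10.13, 10.00 and 10.08 with DB2313 (difference 0.23, limma adjusted p = 0.191), and passed with the trended and robust prior (adjusted p = 0.0153). RUNX1, which binds DNA together with ETS1 and FLI1, had a difference of -0.07 in its gene Runx1 (limma adjusted p = 0.780).

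The genes through which MAP kinases, SUMO, ubiquitin and corepressors act on ETS proteins were represented by 14 of 21 listed genes, and the other 7 are not analysed here. None of the 14 passed in limma and 1 had an unadjusted p under 0.05, against 12.7% of all genes. The groups were apart for 3, all of them higher, against 19.3% of all genes. Det1, part of a ubiquitin ligase that degrades ETS proteins, had a difference of 0.15, and L3mbtl1, a chromatin protein that partners ETV6, of 0.14 (limma adjusted p = 0.378 and 0.538). The L3mbtl1 value was 0.082 without DB2313 replicate 3, 0.091 without vehicle replicate 1 and 0.065 with the offset of 32. The median of the 14 was 0.05.

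Genes described as targets of these factors were read from 4 lists. Of 13 FLI1 and ERG targets measured, Cdh5 rose and 12 did not pass, with a list median of -0.02. An unadjusted p under 0.05 was reached by 4 of the 13, against 12.7% of all genes, and the groups were apart for 5, 2 higher and 3 lower, against 19.3%. Cdh5, the cadherin of endothelial junctions, read 6.70, 6.72 and 6.74 in vehicle and 7.47, 7.57 and 7.71 with DB2313, so that the groups lay far apart. Its log2 difference was 0.86 (SE 0.074, limma adjusted p = 0.00222), and the call was lost in the unmoderated test alone of the settings tried (adjusted p = 0.0549). The other endothelial genes of the list did not pass and went both ways: Icam2 had 0.21, Tek 0.20, Pecam1 0.11, Kdr -0.01, Vwf -0.10, Eng -0.11 and Tie1 -0.27. The platelet genes Gp6 and Gp9 had -0.48 and -0.27 with the groups apart (limma adjusted p = 0.108 and 0.114). Both were dim, at 4.93 and 5.04 in vehicle, below the median of all genes, 5.17. Itga2b, Itgb3 and Pf4, the other platelet genes of the list, had -0.05, -0.02 and 0.10 with overlapping groups.

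Of 19 GABP targets measured, Itgb2, the common chain of the leukocyte integrins, fell and 18 did not pass, with a list median of -0.0016. An unadjusted p under 0.05 was reached by 3 of the 19, against 12.7% of all genes. The groups were apart for 6, 2 higher and 4 lower, against 19.3% of all genes. Itgb2 read 9.46, 9.74 and 9.74 in vehicle and 8.75, 9.01 and 9.06 with DB2313, a log2 difference of -0.70 (limma adjusted p = 0.0249). It is also a well-known PU.1 target. The mitochondrial factors Tfam, Tfb1m and Tfb2m had differences of 0.06, 0.07 and 0.10 with overlapping groups. Other mitochondrial genes of the list went both ways. Polrmt had -0.10 with the treated values all below the vehicle values, and Nrf1, Cox4i1 and Cox5b had -0.0016, 0.04 and -0.04. The Itgb2 call was lost in 5 of the 6 settings with 1 array left out, all but that without vehicle replicate 1 (adjusted p up to 0.0966), in the unmoderated test (adjusted p = 0.172) and with all rows tested (0.103).

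None of 14 immediate-early genes, the class that ELK3 and serum response factor control, passed in limma, and the list median was -0.04. An unadjusted p under 0.05 was reached by 1 of the 14, against 12.7% of all genes. The groups were apart for 3, 2 higher and 1 lower, against 19.3% of all genes. Fos read 6.43, 6.74 and 5.53 in vehicle and 7.91, 7.57 and 7.03 with DB2313. The treated values were all higher, yet both groups spread widely, with replicate 3 the lowest of each group. Replicate 3 was also the lowest of each group for Egr1, Fosb, Dusp1 and Zfp36, and for no other gene of the list. The Fos difference was 1.27 (SE 0.327, limma adjusted p = 0.139), and 0.92 without vehicle replicate 3. Nr4a1 had 0.18 and Srf -0.07. Of 19 targets of ETS1, ETS2 and the ELF factors measured, Cybb, the membrane subunit of the phagocyte oxidase and an ELF1 and PU.1 target, rose by 0.65 and 18 did not pass (limma adjusted p = 0.0468). The median of that list was -0.04, and 2 of its genes had an unadjusted p under 0.05, against 12.7% of all genes. The groups were apart for 3 of its genes, 1 higher and 2 lower, against 19.3% of all genes. The Cybb call was lost without any 1 array other than DB2313 replicate 2 (adjusted p up to 0.154), and after quantile normalization (0.0589), in the unmoderated test (0.225) and with all rows tested (0.159).

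Array medians ranged from 4.77 to 4.82 (log2 signal), and Pearson's r across genes was 0.996 within groups and 0.994 to 0.995 between them, a description across genes that are not independent. Granule genes of myeloid precursors were bright, with Elane at 13.05, Ctsg at 12.51 and Mpo at 9.90 in vehicle, while the row of Ptprc, the pan-leukocyte surface marker, read 3.32, below the lower quartile. Other myeloid markers varied in level, with Cebpa at 9.57, Cebpe at 5.72 and Cd34 at 4.59 in vehicle. None of 12 myeloid markers passed in limma (2 with an unadjusted p under 0.05, against 12.7% of all genes). These 2 were Mpo, with a difference of 0.29, and Fcgr3, with -0.29 (limma adjusted p = 0.281 and 0.168). The groups were apart for these 2 alone of the 12, against 19.3% of all genes. Of the measured markers of other cells, none of 6 B cell, 6 T cell, 4 megakaryocyte and 3 erythroid genes passed. An unadjusted p under 0.05 was reached by 0, 0, 1 and 1 of them. The smallest p-values were those of Pax5 (-0.08) and Ms4a1 (-0.03), Cd28 (-0.24) and Cd4 (-0.07), Gp9 (-0.27) and Pf4 (0.10), and Klf1 (-0.26) and Epor (-0.09). Among the genes of these cell types the groups were apart for Gp9 and Klf1 alone, against 19.3% of all genes. Of 8 endothelial and stromal genes Cdh5 alone passed. The summed log2 signal of the B cell markers ranged from 23.28 to 23.94 in vehicle and from 23.26 to 23.81 with DB2313, that of the T cell markers from 25.69 to 26.70 and from 25.32 to 25.88, and that of the endothelial and stromal markers from 44.71 to 45.38 and from 45.72 to 46.36. In the last of these lists Cdh5 had 0.86, and the other 7 genes had differences from -0.18 to 0.20. For megakaryocyte markers these sums were 17.29 to 18.24 and 17.31 to 17.67, and for erythroid markers 16.06 to 16.36 and 15.69 to 15.82. The part of other cell types in the values of the ETS genes was not tested.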

How the data were processed

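Total RNA from 6 samples was labelled with a whole-transcript kit and hybridised to Affymetrix arrays, per the labels' protocols. Affymetrix Expression Console was used, per the submitters' processing notes. The build and the methods of background correction and probe summary are not stated in the labels. Values in the deposited table are log2 signals, as judged from its range, and its near-equal array medians make a common normalization before deposit probable. A shift in total RNA would then not show. Of 41345 rows, 23521 had 1 symbol, 1814 several and 16010 none in the platform annotation. Identifiers of 23328 matched RefSeq (GRCm38.p6). The brightest row per gene left 22180 genes.

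DB2313 was compared with vehicle in limma 3.58.1 (R 4.3.3; lmFit, eBayes, 2-sided, Benjamini-Hochberg over all genes, 0.05), tested on simulated data. With 200 genes changed there, it recovered 54.4% of those changed by 0.5 log2 and 93.9% of those changed by 1. Changes as small as those of the members were not simulated. Each gene minus Spi1 was fitted likewise. The number of arrays limits the precision. The members and lists were chosen with earlier results of these data known. Named were all members and the PU.1 subfamily, and from each other list up to 4 genes past the threshold by size or, with none, the 2 with the smallest p; other genes were named after their values were seen. Alternatives were 2 filters on dim genes, quantile normalization, median centring, an offset of 32, a trended and robust prior, a replicate block, the mean of rows, all rows, an unmoderated test and each array left out.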

Additional observations from a re-analysis of the deposited data

How the results depend on the processing

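Of the 10 members, 0 passed on all arrays; 1, Elk3, passed with genes below the 0.25 quantile (adjusted p = 0.0283) or the median of signal (0.0100) left out, and 2, Elk3 and Fli1, with the offset of 32 or the trended and robust prior. None passed in the other settings, including each array left out. Over all genes the count of 401 became 799 with the median filter, 830 with the offset, 920 with the trended and robust prior, 190 with the replicate block, 70 in the unmoderated test, 142 with all rows tested and 136 to 187 with 1 array left out (lowest without DB2313 replicate 3). Relative to Spi1, 18998 genes became 10058 with the median filter, which tests fewer genes, and 16495 to 18776 with 1 array left out, while 9 or 10 members passed. The cause of the other shifts was not tested. With 1 array left out, differences changed sign for Ets1 (-0.029 to 0.096), Ets2 (-0.064 to 0.043), Elf4 (-0.0072 to 0.044), Gabpa (-0.0082 to 0.056), Etv6 (-0.016 to 0.0065), Spic (-0.038 to 0.030), Ms4a1 (-0.11 to 0.025) and Pf4 (-0.026 to 0.22). Same-numbered arrays deviated together with r of 0.02, 0.08 and 0.0083, where all pairs of a vehicle and a DB2313 array ran from -0.07 to 0.08. Of the 6 arrays, 4 correlated best with their own number. Whether same-numbered samples share more than the number was not tested. The replicate block left 0 members past the threshold. It brought Fos past it (limma adjusted p = 0.0339) and took Spi1 (0.113) and Cybb (0.0591) out.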
